A study of Mus musculus with 6 samples.

Results

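The genes described here are 10 cytokine receptor chains of T cells, namely Il2ra, Il2rb, Il2rg, Il7r, Il4ra, Il21r, Il6ra, Il6st, Il12rb2 and Ifngr1, taken by symbol from the 23282 rows of each library. RNA-seq was performed on CD4 T cells of C57BL/6 mice, with 3 WT and 3 AMPK KO libraries, to ask how loss of AMPK changes the transcriptome of these cells. WT mice carried the floxed Prkaa1 gene without Cre (Prkaa1fl/fl CD4Cre-neg), and AMPK KO mice carried the same floxed gene with CD4Cre. Prkaa1 encodes the catalytic α1 subunit of the energy sensor AMPK. CD4Cre acts in every lineage that has passed through a CD4-expressing stage, which includes CD8 T cells. Per the study's methods the mice were 6 to 8 weeks old, and female unless stated otherwise, which the sex-linked transcripts of the WT libraries, given with Il2rg, go against. Cells from spleen and lymph nodes of both groups were rested for 1 h and stimulated with anti-CD3 and anti-CD28 antibodies (2 µg/mL each). The labels give 24 h for this stimulation and the study's methods give 6 h, so the time is uncertain. The libraries were prepared from 500 ng of total RNA by QuantSeq, a method that samples each transcript near its 3′ end, so that a level is not divided by transcript length. Levels are given as log2 of scaled CPM (read counts brought to a common library total) plus 1, as deposited. The study calls the replicates independent biological samples, but nothing states whether each came from 1 mouse, and the p-values measure the spread between these libraries.

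Cytokine receptors of this kind are built from chains that are shared between cytokines. Il2rg encodes the common γ chain, which joins the specific chains for IL-2, IL-4, IL-7, IL-15 and IL-21. Il6st encodes gp130, the shared signalling chain of the IL-6 family. On binding of the cytokine, kinases of the JAK family attached to the chains phosphorylate STAT factors, which enter the nucleus and activate target genes. Naive CD4 T cells depend on IL-7 for survival, and stimulation of the T cell receptor changes which chains the cell makes.

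All 10 chains passed the filter on low values (a mean log2 level of at least 1). They were tested by limma among the 11279 genes that passed, with the adjusted p-values taken over all of them. Il2rb was higher and Il7r was lower in AMPK KO, and the other 8 chains did not pass the threshold (an adjusted p of 0.05). Of all genes tested, 5.65% were called, with 2.54% higher and 3.1% lower in AMPK KO. Of the chains, 2 of 10 were called. The 2 groups of libraries did not overlap for 4 chains (Il2rb, Il7r, Il6ra and Il21r), against 25.6% of all genes tested. The log2 fold change was positive for 4 of the 10 chains, with a median of -0.26 over the chains and 0.02 over all genes tested. Their summed level was 3398 to 3981 CPM in WT and 3292 to 3993 CPM in AMPK KO, so the ranges of the sum overlapped.

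**Figure D1:**
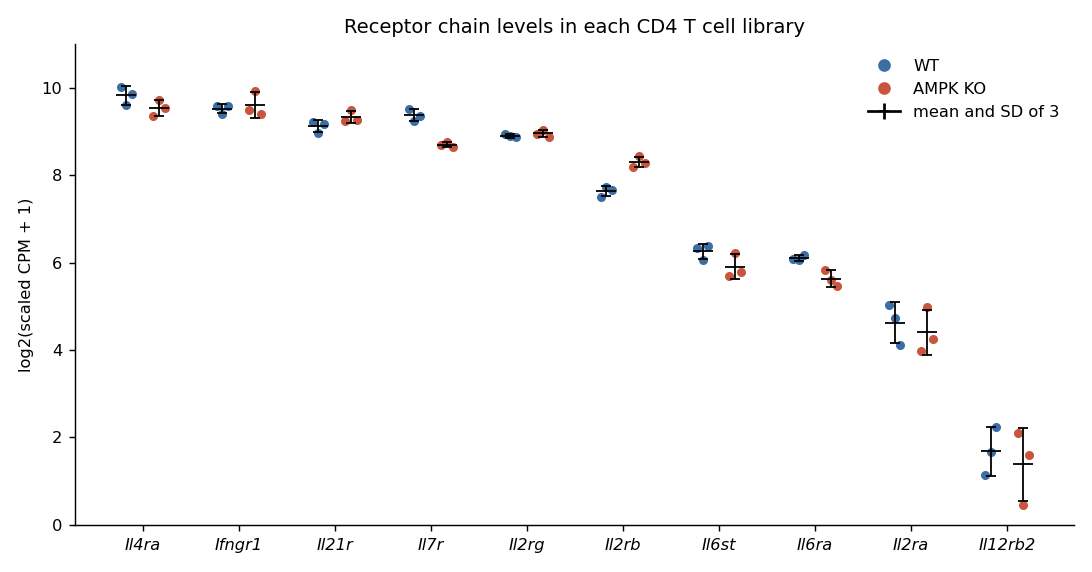
The log2(scaled CPM + 1) level of each receptor chain in the 3 WT (blue) and 3 AMPK KO (red) libraries, with the mean and SD of each group in black. Il2rb and Il7r show clear gaps between the groups, the gap of Il21r is under 0.01, and Il12rb2 lies lowest and spreads most.

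Within WT, the mean levels ran from Il4ra through Ifngr1, Il7r, Il21r, Il2rg, Il2rb, Il6st, Il6ra and Il2ra to Il12rb2. The WT libraries overlapped between the neighbours Ifngr1 and Il7r and between Il6st and Il6ra, and the other neighbours in this order were apart in all 3 libraries. In AMPK KO, Il7r stood below Il21r and Il2rg. The AMPK KO libraries of Ifngr1, Il4ra and Il21r overlapped with each other, as did those of Il6st and Il6ra.

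Il7r, the specific chain of the IL-7 receptor (CD127; chr15:9505788-9530176, minus strand, mm10), was the only chain that was lower past the threshold. Its log2 level was 9.52, 9.24 and 9.36 in the WT libraries and 8.69, 8.75 and 8.65 in the AMPK KO libraries. Every AMPK KO library lay below every WT library. The group means were 9.37 ± 0.14 (SD, n = 3) and 8.70 ± 0.05 (SD, n = 3), which is 664 CPM against 414 CPM. The log2 fold change was -0.68 (SE 0.13, 95% interval -0.96 to -0.39), so that AMPK KO held 62.6% of the WT level. The adjusted p of limma was 0.00976, and the exact permutation test gave 0.1, the smallest p that 3 against 3 libraries allow. Each library held 4622 to 6757 reads of the gene. The call was lost without WT replicate 1 (adjusted p = 0.0907), WT replicate 3 (0.0738) or AMPK KO replicate 1 (0.0679), in limma fits of 5 libraries with log2 fold changes of -0.74 to -0.60 over all 6 such fits.

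The RefSeq promoter of Il7r is shown because it is the called chain with an entry, and because STAT factors and forkhead factors are known regulators of cytokine receptor genes. The window spans 250 bases before to 50 bases after the RefSeq start (chr15:9529827-9530126, minus strand, GRCm38.p6), and the capitals mark a match to the GAS element of STAT factors. GENCODE lets the gene begin further upstream, with a non-coding transcript, so that the whole window lies inside the gene span given above, whereas its annotated coding transcripts begin at the downstream edge of the window.
Il7r: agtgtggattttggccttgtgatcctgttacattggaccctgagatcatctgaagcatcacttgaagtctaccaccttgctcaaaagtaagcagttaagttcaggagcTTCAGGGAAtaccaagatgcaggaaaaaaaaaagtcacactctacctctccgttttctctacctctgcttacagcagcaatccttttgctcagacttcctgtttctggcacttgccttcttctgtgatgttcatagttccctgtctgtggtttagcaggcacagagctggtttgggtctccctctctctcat
Promoters of the same length were read for 9 of the 10 chains (all but Il2rb) and searched on both strands for GAS (TTCNNNGAA), the form with 1 more base between its arms that STAT6 prefers, a forkhead site (GTAAACA) and an AP-1 site (TGANTCA). GAS occurred in 2 of the 9, Il7r at -142 and Il12rb2 at -123 from the start, and in 8.30% of 32851 mouse promoters. The forkhead letters occurred in 1 of the 9, Il21r at -38, and in 3.65% of the mouse promoters. The STAT6 form and the AP-1 site occurred in 0 of the 9, against 6.95% and 7.81% of the mouse promoters. The matches of the other 2 chains are shown with 10 bases on each side, with the match in capitals and read on the strand of the gene.
Il12rb2: gttcccttttTTCTCAGAAccgcactaag
Il21r: ggcggggcacTGTTTACcacatcccct
The 3 genes with a match thus include the called Il7r and 2 chains that were not called, and a match of letters is a description of the window.

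Il2rb, the β chain of the IL-2 and IL-15 receptors (CD122; chr15:78479256-78495271, minus strand), carries the signal of both cytokines together with the γ chain, and was the only chain that was higher past the threshold. Its log2 level was 7.50, 7.72 and 7.66 in the WT libraries. In the AMPK KO libraries it was 8.18, 8.43 and 8.28, and all 3 lay above every WT library. Its mean went from 7.63 ± 0.11 in the WT libraries to 8.30 ± 0.12 in the AMPK KO libraries (SD, n = 3 each), which is 197 CPM against 315 CPM. The log2 fold change was 0.67 (SE 0.14, 95% interval 0.37 to 0.97), a 1.59-fold difference, with an adjusted p of 0.0126 by limma and an exact permutation p of 0.1. The gene had 1665 to 3696 reads per library. The call was lost without WT replicate 1 (adjusted p = 0.0983), WT replicate 3 (0.0761) or AMPK KO replicate 1 (0.0514), whereas the log2 fold change stayed between 0.60 and 0.73 over the 6 fits with 1 library left out.

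Il2ra and Il2rg, the α chain (CD25) and the common γ chain that complete the high-affinity IL-2 receptor, did not pass the threshold. Il2ra (chr2:11642807-11693193, plus strand), which T cells induce on activation and regulatory T cells keep, measured 5.04, 4.73 and 4.12 in WT and 3.99, 4.98 and 4.24 in AMPK KO. The groups overlapped, and the spread within each group (SD 0.47 and 0.52) was larger than the difference of -0.23 (95% interval -0.87 to 0.42, adjusted p = 0.717 by limma). Il2rg (chrX:101264378-101268255, minus strand) measured 8.94, 8.89 and 8.86 in WT and 8.95, 9.04 and 8.87 in AMPK KO. The difference was 0.06 with a 95% interval of -0.22 to 0.33 (adjusted p = 0.848 by limma), and its sign turned to -0.01 when libraries were scaled to the reads outside Rn45s. The gene is X-linked, and the libraries differed in sex-linked transcripts. Xist was at 0.93 to 2.16 in WT and at 7.55 to 7.92 in AMPK KO, and the Y-linked Ddx3y was at 8.44 to 8.53 and 6.93 to 7.28. The WT libraries thus go against the stated female sex, each AMPK KO library held transcripts of both kinds, and their part in the results was not tested.

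Il4ra and Il21r lie next to each other on chromosome 7, with 24.0 kb between them and on the same strand, and encode the specific chains for IL-4 and IL-21. Il4ra (chr7:125552120-125579474) had the highest mean of the 10 chains in WT, with log2 levels of 10.02, 9.60 and 9.85 against 9.36, 9.72 and 9.53 in AMPK KO. WT replicate 2 lay below AMPK KO replicate 2, so the groups overlapped. The difference was -0.29 (SE 0.15, 95% interval -0.61 to 0.04, adjusted p = 0.306 by limma). Il21r (chr7:125603429-125633570) measured 9.22, 8.97 and 9.18 in WT and 9.23, 9.49 and 9.26 in AMPK KO. The lowest AMPK KO library was only just above the highest WT library, and the difference of 0.20 (SE 0.14, 95% interval -0.10 to 0.50) did not pass the threshold (adjusted p = 0.435 by limma).

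Both chains of the IL-6 receptor had negative differences that missed the threshold. Il6ra (chr3:89864059-89913196, minus strand), which binds IL-6 and is lost from T cells on activation, partly by shedding from the cell surface, measured 6.08, 6.06 and 6.18 in WT and 5.84, 5.59 and 5.48 in AMPK KO. The groups did not overlap, and AMPK KO held 72.1% of the WT level. The log2 difference was -0.47 (SE 0.17, 95% interval -0.84 to -0.10), with an unadjusted p of 0.016 and an adjusted p of 0.128 by limma. Il6st (chr13:112464070-112510086, plus strand) measured 6.34, 6.06 and 6.37 in WT and 5.70, 6.23 and 5.78 in AMPK KO. AMPK KO replicate 2 lay above WT replicate 2, and the difference of -0.36 (95% interval -0.75 to 0.04) had an adjusted p of 0.291 by limma.

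The chains for the cytokines of type 1 helper cells were not called either. Ifngr1 (chr10:19591949-19610229, plus strand), the ligand-binding chain of the interferon-γ receptor, measured 9.58, 9.41 and 9.59 in WT and 9.49, 9.94 and 9.40 in AMPK KO. AMPK KO replicate 2 was highest and the other AMPK KO libraries lay within or next to the WT range. The difference of 0.08 (95% interval -0.25 to 0.42, adjusted p = 0.810 by limma) became -0.08 without that library. Il12rb2 (chr6:67291318-67376188, minus strand), which confers a response to IL-12, had only 11, 22 and 33 reads in the WT libraries and 39, 4 and 24 in the AMPK KO libraries. Its log2 levels were 1.13, 1.68 and 2.24 in WT and 2.10, 0.46 and 1.59 in AMPK KO, and the interval of the difference (-1.37 to 0.77 around -0.30) covers changes of either sign. The libraries of AMPK KO alone spread from 4 to 39 reads. Its annotated end overlaps that of Serbp1 on the opposite strand, and whether reads were counted by strand is not given in the sources used here.

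**Figure D2:**
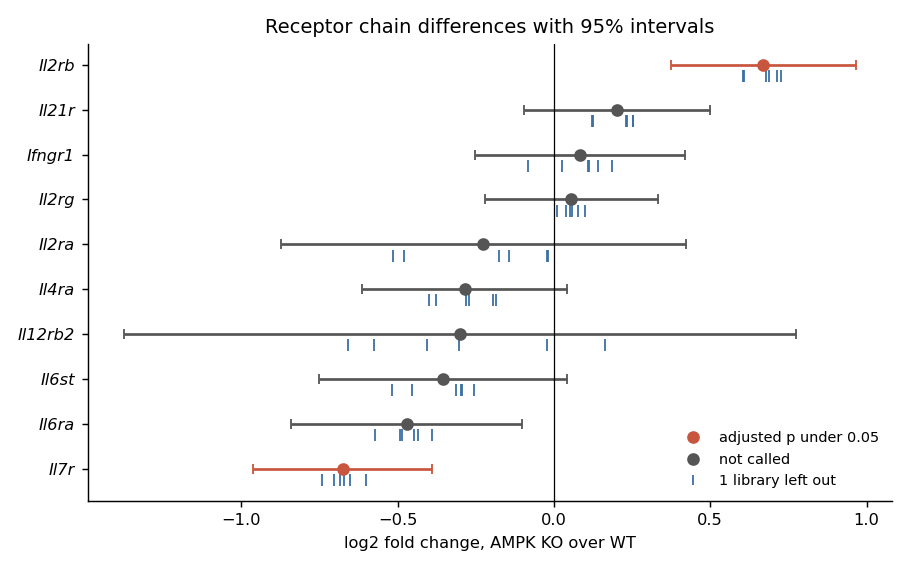
The log2 fold change of AMPK KO over WT for each receptor chain with its 95% interval from limma, red where the adjusted p was under 0.05. The blue ticks under each point give the values with 1 library left out, which stay on 1 side of 0 for all chains but Ifngr1 and Il12rb2.

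To compare chains within a receptor, the log2 level of the partner chain was subtracted in each library, which nearly removes the scaling of the library for well-expressed chains but not for Il12rb2 and Il12rb1, where the added 1 is a large part of the value. Of the 8 pairs, the groups did not overlap for Il2rb, Il7r and Il4ra against Il2rg, and each of these 3 had an exact permutation p of 0.1 (0.267 adjusted over the 8 pairs), which cannot pass 0.05 with 3 against 3 libraries. Among single genes 25.6% did not overlap, and the pairs with Il2rb and Il7r largely restate the differences of those chains, since Il2rg differed by 0.06. Il7r exceeded Il2rg by 0.58, 0.35 and 0.50 in WT and lay below it by values of -0.26, -0.29 and -0.22 in AMPK KO. The mean balance moved from 0.47 to -0.26, a change of -0.73, and Il7r was above its partner in every WT library and below it in every AMPK KO library. These are differences of RNA levels in bulk libraries, and receptor protein was not measured. Il2rb minus Il2rg was -1.43, -1.17 and -1.20 in WT and -0.76, -0.61 and -0.58 in AMPK KO, so the β chain stayed below the γ chain in all 6 libraries and came closer to it by 0.62. Il4ra minus Il2rg was 1.08, 0.70 and 0.99 in WT and 0.41, 0.68 and 0.66 in AMPK KO, a change of -0.34. Il2ra lay far below Il2rg in both groups (means -4.27 ± 0.43 and -4.55 ± 0.45, SD, n = 3).

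The remaining pairs overlapped between the groups. Il21r minus Il2rg changed by 0.15 and Il6ra minus Il6st by -0.12. Ifngr2, the signalling chain that pairs with Ifngr1, was at 6.44, 6.69 and 6.09 in WT and 5.85, 5.26 and 6.21 in AMPK KO (log2 fold change -0.63, adjusted p = 0.127 by limma). The balance of Ifngr1 over Ifngr2 was 3.12 ± 0.39 in WT and 3.83 ± 0.76 in AMPK KO (SD, n = 3), with an exact permutation p of 0.2. The change of 0.71 was 0.29 without AMPK KO replicate 2 and 1.04 without AMPK KO replicate 3. Il12rb1, the partner of Il12rb2, had 17, 31 and 13 reads in WT and 30, 45 and 17 in AMPK KO, and the balance of this pair (0.07 against -0.44, SD 0.75 and 1.28) overlapped widely between the groups.

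**Figure D3:**
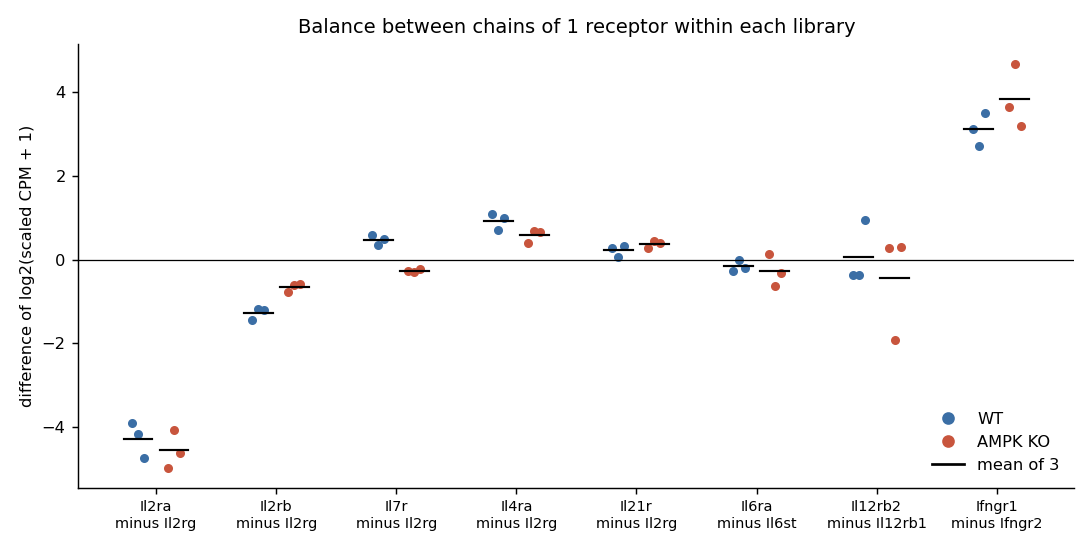
The difference in log2(scaled CPM + 1) between the 2 chains of a receptor in each WT (blue) and AMPK KO (red) library, with the mean of 3 as a black line. Il7r minus Il2rg lies above 0 in WT and below 0 in AMPK KO, and Il2rb minus Il2rg is higher in AMPK KO.

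Among 35 other cytokine receptor chains, 28 could be tested, of which 3 were higher and 0 lower in AMPK KO by limma. At an unadjusted p under 0.05, 1 chain (Ifngr2) was lower, and limma voom on recovered reads also called 0 lower. The median log2 fold change was 0.36 against 0.02 over all genes tested. Csf2ra, the specific chain of the GM-CSF receptor, was at 5.62, 5.87 and 5.08 in WT and 7.06, 6.58 and 7.06 in AMPK KO (log2 fold change 1.38, adjusted p = 0.00188). Il1r2, the decoy receptor of IL-1, rose by 0.98 (adjusted p = 0.0196), and Csf1r, the macrophage receptor for M-CSF, rose by 0.97 (adjusted p = 0.0197). Csf2ra and Csf1r are best known from myeloid cells, whose markers also moved with the groups. The count was 1 without WT replicate 1, WT replicate 3 or AMPK KO replicate 1 and 5 without AMPK KO replicate 3, where 4 were higher and 1, Ifngr2, was lower (log2 fold change -0.85, adjusted p = 0.0350). Il17re, Il20ra and Osmr had 0 reads in all libraries.

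Of 12 cytokine genes, 5 could be tested, and Ifng, the ligand of the interferon-γ receptor, was the 1 gene called. It was at 2.12, 4.10 and 3.45 in WT and 4.91, 5.17 and 4.71 in AMPK KO (log2 fold change 1.70, SE 0.40, adjusted p = 0.0231 by limma), and the call was lost without WT replicate 1, WT replicate 3 or AMPK KO replicate 1. In those limma fits the count was 0, with 1 gene at an unadjusted p under 0.05, and limma voom on all libraries called 1. Il2, the ligand of the IL-2 receptor chains, had only 3 to 8 reads per library, and Il4 and Il7 had 0 reads in all libraries. The 5 tested ligands had a median of 0.43.

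Of the 11 JAK kinases and STAT factors, 1 was higher and 1 lower, with a median of 0.10. Stat4, which transmits the IL-12 signal, was at 5.51, 5.62 and 5.86 in WT and 6.79, 6.33 and 6.85 in AMPK KO (log2 fold change 0.99, adjusted p = 0.00707 by limma). Jak1, which attaches to Il2rb, Il7r, Il4ra, Il21r and gp130, was at 11.03, 10.76 and 11.01 in WT and 10.25, 10.57 and 10.23 in AMPK KO (log2 fold change -0.58, adjusted p = 0.0383). The groups did not overlap for either gene. Jak3, which attaches to the γ chain, had a difference of 0.25 (adjusted p = 0.555), and Stat5a and Stat5b, which act below IL-2 and IL-7, had differences of 0.10 and -0.07 (adjusted p = 0.803 and 0.830). Without WT replicate 1 or AMPK KO replicate 1 the limma count was 0 (3 genes at an unadjusted p under 0.05, and 2 called by limma voom on all libraries), and without WT replicate 3 or AMPK KO replicate 3 it was 1.

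Among 15 genes that cytokines induce, 2 were higher and 1 lower, with a median of 0.03. Irf1, an interferon-induced transcription factor, was higher in every AMPK KO library (9.77, 10.04 and 9.91 against 9.07, 9.16 and 9.06; log2 fold change 0.81, adjusted p = 0.00336 by limma). Socs1, a feedback inhibitor of JAK kinases, was called with a log2 fold change of 2.13 (adjusted p = 0.0196) although the groups overlapped, with 3.19, 4.97 and 3.19 in WT and 6.22, 4.78 and 6.74 in AMPK KO. The call of Socs1 held in 7 of 14 alternatives and was lost with robust spread (adjusted p = 0.192), with limma voom (adjusted p = 0.0506) and without WT replicate 1, WT replicate 3 or AMPK KO replicate 1. Bcl2, the survival gene that IL-7 maintains, was at 7.64, 7.58 and 7.70 in WT and 7.20, 6.74 and 6.96 in AMPK KO (log2 fold change -0.67, adjusted p = 0.0206), and all AMPK KO libraries lay below all WT libraries. Cish, an early target of STAT5, differed by -0.05 (adjusted p = 0.938). The count fell to 1 without WT replicate 1 or WT replicate 3, and Bcl2 was among the calls lost there.

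Of 14 transcription factors and sheddases linked to these chains, 0 were higher and 3 lower by limma and by limma voom, and Adam17 alone (1 gene) was higher at an unadjusted p under 0.05 in limma. The median was -0.23. Tcf7 and Lef1, factors of naive T cells, had log2 fold changes of -1.66 (adjusted p = 0.000719) and -1.03 (adjusted p = 0.00160), and both stayed called without any 1 library. Ets1, which activates Il7r and Il2rb in lymphocytes, had a log2 fold change of -0.63 (adjusted p = 0.0425), a call lost without any 1 WT library or AMPK KO replicate 1. Foxo1, which drives Il7r in naive T cells, differed by -0.17 (adjusted p = 0.502), and Gfi1, a repressor of Il7r, by -1.18 (adjusted p = 0.0639). Adam17, which sheds Il6ra from the cell surface, differed by 0.42 (adjusted p = 0.137).

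**Figure D4:**
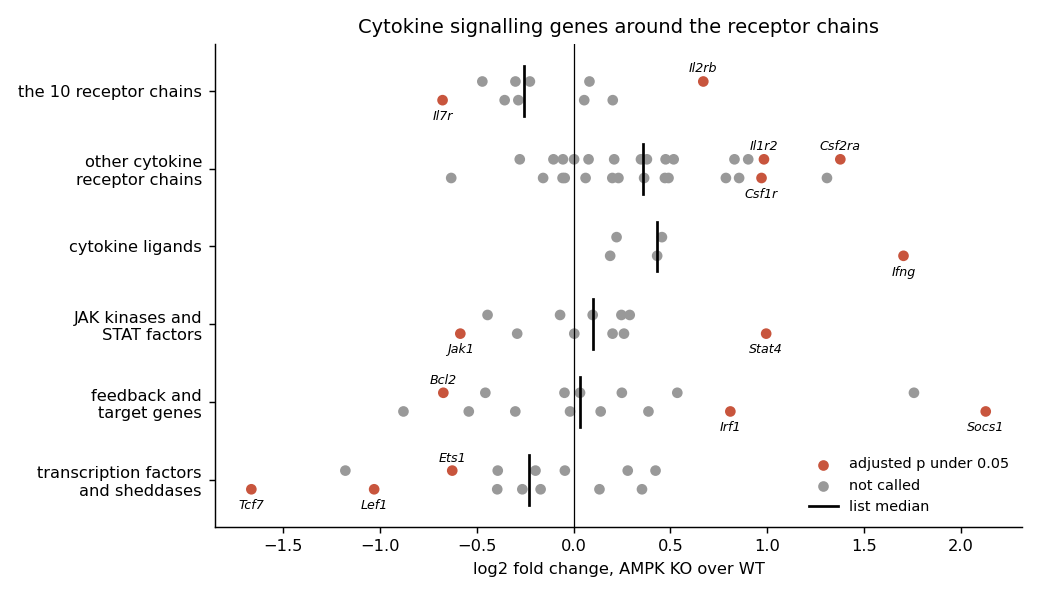
The log2 fold change of AMPK KO over WT for each tested gene of the receptor chains and of 5 lists around them, red where the adjusted p was under 0.05, with the list median in black. The medians are -0.26 for the receptor chains and 0.36 for the other cytokine receptor chains.

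Genes whose pattern over the 6 libraries was most like that of the called chains were read as a description among 6142 genes with a mean log2 level of at least 4. For Il7r these were Treml2 (Pearson r = 0.996), Scaper (0.995) and Cep57 (0.995), and 171 genes reached an r of 0.95. For Il2rb they were Npm1 (0.996), Grb2 (0.995) and Rpl17 (0.995), and 72 genes reached that r. The 6 points fall into the groups of the design, so that any gene that differs between them will correlate.

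The nearest tested genes on each side of the chains comprised 18 genes that are not chains themselves, and 1 of them was called. That gene, Gm614, lies 0.386 kb from Il2rg on the same strand, with a log2 fold change of -1.33 (adjusted p = 0.0470 by limma), and its call was kept in only 3 of 13 alternatives. Another annotated gene on that strand, Gm20489, spans Il2rg and most of Gm614, and how reads were divided between them is not given in the sources used here. The neighbours of Il7r, Capsl and Spef2, had differences of 0.53 and 0.70, and those of Il2rb, Kctd17 and C1qtnf6, had differences of 1.22 and 1.14, with no call among the 4 genes.

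The libraries held 9575096 to 10168121 reads on genes in WT and 10515155 to 11185360 in AMPK KO, of which the ribosomal precursor Rn45s took 22.4% ± 2.21 and 9.89% ± 1.24 (SD, n = 3). Prkaa1, the targeted gene, was at 4.64, 5.24 and 4.86 in WT and 4.08, 4.72 and 4.67 in AMPK KO (log2 fold change -0.43, adjusted p = 0.357 by limma). The groups overlapped, and a 3′ read does not show whether an exon further upstream was deleted. Markers of other cells were present in cells labelled CD4. Cd8a was at 6.48 to 6.86 in WT and 6.95 to 7.08 in AMPK KO, and Cd4 at 6.53 to 6.83 and 6.14 to 6.55. Cd8b1 was at 7.165 to 7.608 in WT and 7.585 to 7.984 in AMPK KO, above Cd4 in every library. AMPK KO replicate 2 was the highest AMPK KO library for 8 of the 10 chains, against 39.2% of all genes tested.

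Several marker lists moved with the groups, and their part in the results for Il7r, Il2rb and the other chains was not tested. Many of these calls rest on single libraries: of 39 genes called in the lists, 12 were still called without WT replicate 1, 18 without WT replicate 3, 17 without AMPK KO replicate 1 and 30 to 38 without any 1 of the others. In bulk RNA, fewer cells of a type and less RNA per cell cannot be told apart. Of 8 naive T cell markers, Tcf7 and Lef1 were among those called lower and 0 were higher by limma and by limma voom, with 0 higher at an unadjusted p under 0.05 in limma, and Klf2 and Foxp1 were the only ones with positive differences. The summed level of the list was 5720 to 5917 CPM in WT and 4535 to 5463 CPM in AMPK KO. Of 13 T cell markers, Cd3e, Cd3g and Cd28 were lower and Thy1 was higher, with Cd28 and Thy1 called in only 6 and 5 of 14 alternatives and in neither case by limma voom, and with sums of 3477 to 3655 CPM and 2852 to 3379 CPM. Of 10 activation markers, Cd44, Tnfrsf9 and Tfrc were higher and Cd40lg and Egr1 were lower, with sums of 2418 to 2746 CPM and 2100 to 2256 CPM. Of 9 regulatory T cell markers, Gpr83 was lower (called in 5 of 13 alternatives), whereas Foxp3 was not called (difference -0.20, adjusted p = 0.631 by limma). Positive differences were seen for 3 of the 9. They include Ctla4 (0.75, adjusted p = 0.0967 by limma) and Nrp1 (0.70, adjusted p = 0.0921), neither of them called. The sums of this list were 538 to 561 CPM in WT and 559 to 633 CPM in AMPK KO.

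Among markers of cells other than CD4 T cells, all 17 tested myeloid genes had positive differences and 9 were called higher, led by Cd14 (1.87), C1qa (1.85) and Lyz1 (1.76). The summed level of the myeloid list was 724 to 816 CPM in WT and 1082 to 1910 CPM in AMPK KO. This list holds Csf1r, which is also among the other receptor chains. Of 10 tested NK and CD8 T cell markers, which include cells known for high Il2rb, 9 had positive differences and Klrk1 was called (1.62, adjusted p = 0.0143 by limma; called in 9 of 14 alternatives), with sums of 352 to 461 CPM and 523 to 599 CPM. Prf1, the pore-forming protein of cytotoxic granules, had the 1 negative difference (-1.09, adjusted p = 0.181 by limma), and its groups did not overlap. The NK cell receptor Ncr1 was at 0 reads in WT replicate 1 and in AMPK KO replicates 1 and 2. Of 11 B cell markers, Cd74, which other antigen-presenting cells also express, was called higher (in 7 of 14 alternatives). Cd74 alone made up 448 to 578 CPM in WT and 675 to 1486 CPM in AMPK KO, and the rest of the B cell list summed to 328 to 355 CPM and 333 to 382 CPM, with overlapping groups. Of 11 neutrophil markers, Ngp (called in all 14 alternatives) and Ltf (in 7 of 13) were lower, and 4 had positive differences. The largest of these was that of Retnlg (0.59, adjusted p = 0.277 by limma), whose groups did not overlap. S100a8 and S100a9, the highest of the list, were not called (adjusted p = 0.0747 and 0.264). The sums of the list were 802 to 919 CPM in WT and 530 to 769 CPM in AMPK KO.

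**Figure D5:**
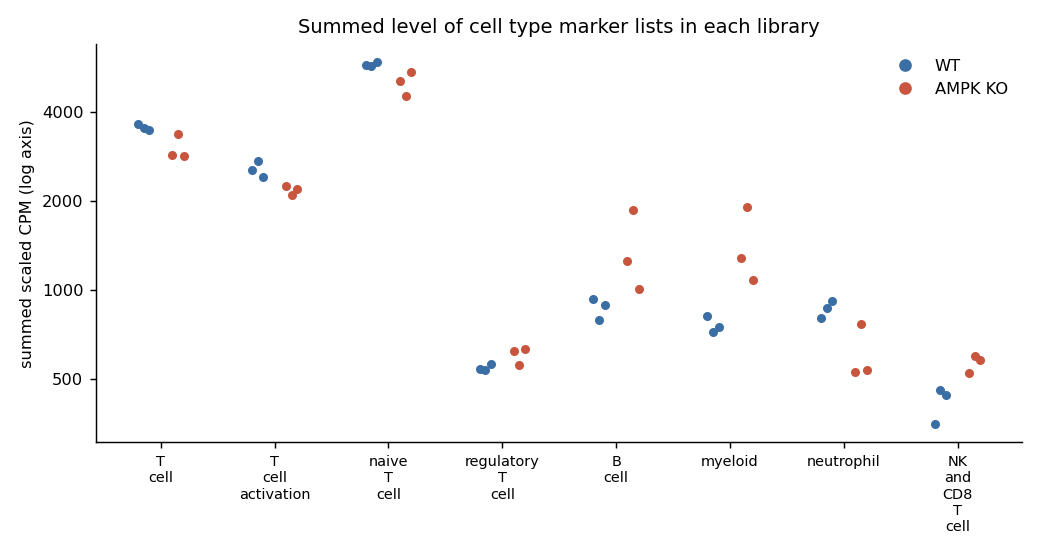
The summed scaled CPM of each cell type marker list in the 3 WT (blue) and 3 AMPK KO (red) libraries, on a log axis. The myeloid sums lie between 724 and 816 CPM in WT and between 1082 and 1910 CPM in AMPK KO, and the naive T cell sums lie lower in AMPK KO.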

How the data were processed

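RNA-seq of CD4 T cells was analysed in 3 WT and 3 AMPK KO libraries, grouped by the labels. The authors deposited log2 values per gene symbol, made from scaled CPM plus 1 and rounded to 3 decimals. The submitters' processing notes name Bowtie2, bedtools and mm10, without versions. The study names TMM with CPM for one analysis of these libraries, and TMM factors computed here were close to those in the deposited values. Whole reads were recovered: up to 100 reads, 100% of values lay within 0.1 of a whole read. Of 23282 rows, 35 symbols occurred on 79 lines, and each chain occurred once.

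The deposited values were tested with limma 3.58.1 in R 4.3.3 (lmFit and eBayes with a trend, genotype as the only term, two-sided, Benjamini-Hochberg over 11279 genes with a mean of at least 1). An adjusted p under 0.05 was a call. Single differences were also tested by a two-sided exact permutation test, which cannot go below 0.1. Fold changes are on the log2(CPM + 1) scale, which understates changes of low genes. The code was tested on simulated data.

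The members and gene lists were chosen with earlier results of these data known. Named genes were all members, Prkaa1, partner chains, nearest tested genes, the 3 genes most correlated with Il7r and Il2rb, and every called gene of a list, or the 3 largest in each direction where more than 6 were called. Some results are not reported here. Genes outside this rule are named for their role in the pathway, after their values were seen. Positions are from GENCODE vM21 and promoters from RefSeq (GRCm38.p6), both of the mm10 build. Alternatives were 2 other scalings, a pseudocount of 0.25, no filter, a filter of at least 3, a replicate block, robust spread, limma voom on recovered reads, and each library left out. Tables were made in Python 3.11.15 (pandas 2.3.3, numpy 2.4.6), exact tests with scipy 1.17.1 and plots with matplotlib 3.10.9.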

Additional observations from a re-analysis of the deposited data

How the results depend on the processing

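Il2rb and Il7r kept their direction in all 14 alternatives and were called in 10 of them. Their log2 fold changes were 0.60 to 0.73 and -0.75 to -0.60, with adjusted p-values of 0.00604 to 0.0983 and 0.00103 to 0.0914. No other chain was called in any alternative. With the replicate block the number of chains called was 0 (limma, adjusted p of 0.0911 for Il2rb and 0.0914 for Il7r, with 3 chains at an unadjusted p under 0.05), whereas limma voom on recovered reads called 2, and with 1 library left out it was 0 to 2. The number of genes called was 308 without a filter, 102 with the replicate block and 127 to 1246 with 1 library left out. Same-numbered libraries did not deviate together (correlations of -0.08, -0.32 and -0.16). With 3 libraries a group this cannot show whether the numbers pair the samples, and the labels do not say. Scaled to reads outside Rn45s, 722 genes were called, 32.5% of them higher, against 45.1% in the values reported. With a filter of at least 3, Il12rb2 was not tested. The cause of these shifts was not tested.

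The sign of Il2rg changed to -0.0144 with scaling to reads outside Rn45s. Without AMPK KO replicate 2 the sign changed for Il12rb2, Ifngr1, Il12rb1 and the balances Il6ra minus Il6st and Il12rb2 minus Il12rb1. With 1 library left out, the values ran from -0.66 to 0.16 for Il12rb2, from -0.0823 to 0.19 for Ifngr1, from -0.0655 to 0.48 for Il12rb1, from -0.32 to 0.0683 for Il6ra minus Il6st and from -0.8873 to 0.23 for Il12rb2 minus Il12rb1. Without a filter, the calls were 1 of the other receptor chains, 0 ligands, 1 of the JAK and STAT genes and 1 of the feedback genes, and with the replicate block these were 1, 0, 0 and 0. With 1 library left out they were 1 to 5, 0 to 1, 0 to 2 and 1 to 4. Il12rb2, Il12rb1 and Il2 had at most 45 reads in a library, so that counting error is part of their spread.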

Other observations

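Of the 28 other receptor chains tested, 21 had positive differences. Some that were not called are given as values, chosen after they were seen. Il1rl1, the receptor of IL-33, was at 3.23, 1.43 and 1.70 in WT and 3.79, 3.03 and 3.47 in AMPK KO (log2 fold change 1.31, adjusted p = 0.108 by limma). The chains of the IL-18 receptor, Il18r1 and Il18rap, had differences of 0.49 (adjusted p = 0.241) and 0.52 (adjusted p = 0.434), and those of the IL-1 receptor, Il1r1 and Il1rap, had differences of 0.08 (adjusted p = 0.952) and 0.83 (adjusted p = 0.341). The shared β chain of the GM-CSF and IL-3 receptors, Csf2rb, was at 4.49, 4.63 and 4.93 in WT and 5.46, 5.89 and 5.07 in AMPK KO. Its groups did not overlap, and its difference of 0.79 had an adjusted p of 0.0654.

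A comparison of the adjacent genes Il4ra and Il21r was chosen after their values were seen. Il4ra exceeded Il21r by 0.80, 0.63 and 0.67 in WT and by 0.13, 0.24 and 0.26 in AMPK KO. The mean fell from 0.70 to 0.21, a change of -0.49 with an exact permutation p of 0.1, the smallest that 3 against 3 libraries allow, while neither gene was called on its own.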
